A study of Mus musculus with 14 samples.

Results

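The genes described here are 10 homeodomain transcription factors of the developing spinal cord: 9 LIM homeodomain genes (Isl1, Isl2, Lhx1, Lhx2, Lhx3, Lhx4, Lhx5, Lhx9 and Lmx1b) and Mnx1. They were chosen by name, as the 10 of 23152 RNA-seq loci that carry these symbols through their RefSeq identifiers, and each had 1 row in every table. LIM homeodomain proteins join 2 LIM domains, which bind partner proteins such as the adaptor LDB1, to a homeodomain that binds DNA, commonly at sites with the core TAAT. In the embryonic cord they act as a combinatorial code. LHX3 and LHX4 are made in motor neurons and in V2 interneurons, ISL1 joins them in newly born motor neurons, ISL2 follows in the same cells, and MNX1 (also called HB9) helps to keep the interneuron programme off. LHX1, LHX5, LHX2, LHX9 and LMX1B mark classes of interneurons and dorsal neurons, and LHX1 is also made by motor neurons that project to the dorsal limb. ISL1 and ISL2 are in addition made by sensory neurons of the dorsal root ganglia.

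The study followed TAF9B, a TBP-associated factor of the core promoter machinery, through motor neuron differentiation. RNA-seq was done on 11 libraries, 1 for each condition, all of C57BL/6 background. The cultures were wild type (WT) ES cells of the JM8 clone and TAF9B -/- (KO) ES cells of the Taf9b_BG10 clone, each as ES cells and as embryoid bodies (EB) at days 2, 4 and 6 with retinoic acid and the smoothened agonist SAG. The tissues were newborn spinal column of WT and KO mice and newborn WT spinal cord. The paper describes the column as lumbar and from littermates and gives no level for the cord, so the tissues may differ in level. ChIP-seq for TAF9B and RNA polymerase II (POL2) was done on WT embryoid bodies enriched in motor neurons, from the HBG3 clone at day 8 of differentiation. Each genotype in culture is a single clone. In the KO clone, which is male, a LacZ-Neo cassette stands in place of the coding exons of the X-linked Taf9b gene. Both ES lines were kept on feeder fibroblasts. Spinal column is bone, muscle, ganglia and cord together. HBG3 cells carry a GFP reporter driven by Mnx1 promoter sequence, so reads from the reporter and from the endogenous Mnx1 promoter cannot be told apart. Values are FPKM (fragments per kilobase of transcript, scaled to the fragments mapped in the library), a scale that corrects for gene length and allows levels of different genes to be compared. With 1 library per condition there is no replicate error within a condition, and no test was run. A gene counted as past 2-fold when its ratio of FPKM exceeded 2 in either direction and either library was above 1 FPKM.

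The labels come from the sample titles and the WT and KO names of the deposited columns. Taf9b itself was checked against them first. In culture it went against the labels. Taf9b read 0.537 FPKM in the ES library labelled WT and 3.06 FPKM in that labelled KO. The pair read 0.516 and 4.08 FPKM at day 2, 1.96 and 4.27 FPKM at day 4, and 1.37 and 4.01 FPKM at day 6. In spinal column it was lower in the library labelled KO, at 3.31 FPKM against 6.65 FPKM. By qRT-PCR and western blot, the paper reported induction of Taf9b during differentiation in WT cells and none in KO cells. The tables give 1 value for the whole locus, so what part of the transcript these reads come from was not tested. Each comparison below is therefore stated between the libraries as labelled, and WT and KO stand for the labels.

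TAF9B ChIP-seq peaks lay within 50 kb of 6 of the 10 genes: Isl1, Isl2, Lhx1, Lhx3, Lhx4 and Mnx1. The DNA at these peaks is shown first, except for Isl2, whose peak lies at the start of another gene. Each line holds 200 bases of mm9 (NCBIM37) on the strand of the gene, 5′ to 3′, at the centre of the peak, or up to the last base before the transcript where that centre lies at the promoter. Capitals mark CANNTG, the E-box core bound by bHLH factors such as NEUROG2 and OLIG2. The homeodomain palindrome TAATTA was searched as well and was in none of the 8 windows.
Isl1 promoter, chr13:117099897-117100096, minus strand: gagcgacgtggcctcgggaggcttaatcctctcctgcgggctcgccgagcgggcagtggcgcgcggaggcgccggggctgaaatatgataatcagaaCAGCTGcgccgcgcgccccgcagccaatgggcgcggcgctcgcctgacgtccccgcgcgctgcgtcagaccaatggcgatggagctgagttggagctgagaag
Lhx1 promoter, chr11:84339037-84339236, minus strand: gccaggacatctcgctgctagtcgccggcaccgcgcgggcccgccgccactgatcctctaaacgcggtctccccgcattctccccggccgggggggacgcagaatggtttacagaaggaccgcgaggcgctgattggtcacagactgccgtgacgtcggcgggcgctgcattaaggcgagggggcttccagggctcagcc
Mnx1 promoter peak, chr5:29805445-29805644, minus strand: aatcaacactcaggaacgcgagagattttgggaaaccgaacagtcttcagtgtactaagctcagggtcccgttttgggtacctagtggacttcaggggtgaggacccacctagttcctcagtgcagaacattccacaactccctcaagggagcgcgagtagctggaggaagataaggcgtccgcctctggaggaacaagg
Mnx1 upstream, chr5:29812078-29812277, minus strand: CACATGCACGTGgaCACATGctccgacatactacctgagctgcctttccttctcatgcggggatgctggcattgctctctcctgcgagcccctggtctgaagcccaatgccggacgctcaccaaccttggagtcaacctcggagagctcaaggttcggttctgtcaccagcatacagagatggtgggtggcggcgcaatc
Lhx1 upstream, chr11:84382091-84382290, minus strand: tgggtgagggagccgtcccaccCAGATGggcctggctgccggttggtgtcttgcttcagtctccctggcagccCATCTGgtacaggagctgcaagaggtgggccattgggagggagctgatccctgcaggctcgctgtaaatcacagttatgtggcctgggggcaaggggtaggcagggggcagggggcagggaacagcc
Lhx4 intron, chr1:157576607-157576806, minus strand: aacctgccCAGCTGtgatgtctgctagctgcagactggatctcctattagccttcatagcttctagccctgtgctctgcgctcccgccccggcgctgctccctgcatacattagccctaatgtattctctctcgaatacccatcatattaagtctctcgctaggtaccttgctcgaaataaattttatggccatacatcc
Lhx4 upstream, chr1:157597665-157597864, minus strand: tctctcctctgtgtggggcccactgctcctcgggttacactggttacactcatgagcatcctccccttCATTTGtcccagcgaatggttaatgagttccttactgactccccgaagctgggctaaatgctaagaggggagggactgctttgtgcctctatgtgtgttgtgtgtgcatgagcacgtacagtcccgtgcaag
Lhx3 downstream, chr2:26030874-26031073, minus strand: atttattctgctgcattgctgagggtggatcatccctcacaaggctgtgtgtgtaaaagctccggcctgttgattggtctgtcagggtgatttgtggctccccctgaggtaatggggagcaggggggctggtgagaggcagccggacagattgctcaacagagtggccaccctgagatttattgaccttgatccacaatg

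The promoter windows of Isl1 and Lhx1, directly before the transcript, were rich in G and C, at 69.0% and 68.5%, with 27 and 23 CG pairs. The window of the Mnx1 promoter peak lies farther out, centred 0.535 kb upstream of the start, and held 53.5% and 8 CG pairs. The windows away from promoters at Lhx3 and Lhx4 held 50% to 53.5% G and C and 2 to 7 CG pairs. The upstream windows held 64.5% at Lhx1, with 3 CG pairs, and 58.5% at Mnx1, with 10. The upstream Mnx1 window held 3 E-box matches, the upstream Lhx1 window 2, and the Isl1 window and each Lhx4 window 1. The Lhx1 promoter, Mnx1 promoter and Lhx3 windows held none. The CANNTG pattern is its own reverse complement, and 60.4% of the 10402 TAF9B peaks with a full window held at least 1 match in 200 bases around the centre, 48.2% of those within 500 bp of a transcription start and 69.2% of the others. TAATTA was in 3.16% of them. The shorter core, TAAT or its reverse complement ATTA, was in 41.9% of them, and in 5 of the 8 windows here: 4 matches in the Lhx4 intron, 2 at the Isl1 promoter, and 1 each at the Lhx1 promoter, upstream of Lhx4 and downstream of Lhx3.

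Isl1 and Lhx1 had TAF9B at their promoters. The Isl1 peak, 209 bp wide with a score of 94.0 (MACS score; median of the list 83.3), was centred 0.077 kb upstream of the start of transcription, and no POL2 peak lay within 50 kb of Isl1. Lhx1 had a peak with a score of 277, at the percentile 97.0 of the list, centred 0.081 kb upstream, and a POL2 peak with a score of 278 overlapped it. Lhx1 had another TAF9B peak 43.2 kb upstream, with a score of 77.1. A second POL2 peak near Lhx1 lay at the start of the neighbouring gene Aatf.

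At Mnx1 both antibodies gave very wide peaks. TAF9B peaks of 1529 bp and 1803 bp were centred 0.535 kb and 7.17 kb upstream, with scores of 292 and 117, against a median width of 217 bp in the list. The POL2 peaks over them were 3287 bp and 4904 bp wide, against a median of 686 bp. Their widths stood at the percentiles 99.6 and 99.8 of the POL2 list, and those of TAF9B at 99.95 and 99.97 of theirs. The reporter of these cells carries Mnx1 promoter sequence, and its part in the widths was not tested. The study's own ChIP-qPCR amplicon for the Mnx1 promoter, chr5:29805017-29805264, lies inside the nearer TAF9B peak and a POL2 peak, and its negative control, 51.4 kb upstream, overlapped no peak of either list.

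At Lhx3 and Lhx4, the pair of genes that act together in motor neurons and V2 interneurons, TAF9B lay away from the promoters and without POL2. Lhx4 had a peak in its intron 12.45 kb downstream of the start, with a score of 52.0, and 1 peak 8.61 kb upstream with a score of 95.2. The first of these is near the lowest score of the list, 50.04. A weak POL2 peak, with a score of 51.9, lay 0.559 kb upstream of the Lhx4 start and overlapped neither. The study's distal Lhx4 amplicon, chr1:157597722-157597941, overlapped the upstream TAF9B peak. Lhx3 had 1 peak, 31.1 kb downstream of its start and beyond its end, with a score of 63.4.

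For Isl2 and Lhx9 the peaks within 50 kb sat at other genes. The TAF9B and POL2 peaks 28.9 kb and 29.1 kb upstream of Isl2 were at the start of Etfa, and the POL2 peak 9.26 kb upstream of Lhx9 was at the start of 2310009B15Rik. No peak of either kind was found for Lhx2, Lhx5 or Lmx1b, which are markers of other classes of neuron. In all, 6 of 10 genes had a TAF9B peak within 50 kb, and 6 of the 8 that were above 1 FPKM at EB day 6, against 73.8% of all loci above 1 FPKM then, which is earlier than the day of the ChIP. The count for POL2 was 5 of 10 and 4 of the 8, against 79.3%. For TAF9B peaks that overlap no POL2 peak it was 4 of 10 and 4 of the 8 (Isl1, Lhx1, Lhx3 and Lhx4), against 50.9%. Within 5 kb the counts, all among the 8, were 4 for TAF9B against 47.8%, 3 for POL2 against 62.6%, and 2 for TAF9B without POL2 against 23.9%.

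**Figure D1:**
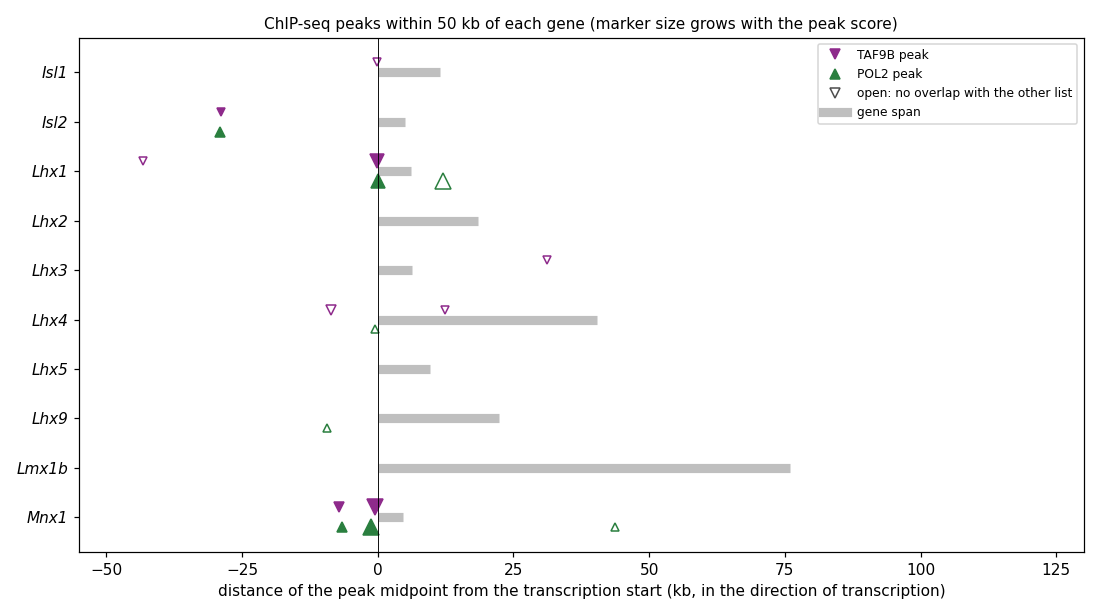
Peaks of TAF9B (downward triangles, purple) and POL2 (upward triangles, green) by distance in kb from the start of transcription of each gene, with the gene's span as a grey bar. Filled markers overlap a peak of the other list and marker size grows with the score. TAF9B sits at the start of Isl1, Lhx1 and Mnx1, in the intron of and upstream of Lhx4, and downstream of Lhx3, while Lhx2, Lhx5 and Lmx1b have no peak.

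In the cultures labelled WT, the motor neuron genes of the group were low until day 4 and high at day 6, in tables that were normalized separately for each time. Lhx3 was at 0.0217 FPKM in ES cells, 0.0319 FPKM at day 2, 0.173 FPKM at day 4 and 14.9 FPKM at day 6. Isl1 followed the same course with 0.0707, 0.244, 0.301 and 10.96 FPKM. Lhx4 was listed at 0 in ES cells and at day 2 and reached 0.00389 FPKM at day 4 and 2.83 FPKM at day 6. All 3 genes thus passed 1 FPKM only at day 6.

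Mnx1 came earlier, with 0.335, 0.487, 2.32 and 14.3 FPKM from ES cells to day 6. Isl2 stayed low and reached 2.02 FPKM at day 6, below Isl1, so that the ratio of Isl1 to Isl2 was 5.44 in that library. Lhx1 was at 0.342, 1.45, 2.27 and 4.34 FPKM over the same times and was the only gene of the group above 1 FPKM at day 2. These genes did not share 1 time course.

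Among the interneuron and dorsal markers, Lhx2 went from 0.473 FPKM in ES cells to 2.35 FPKM at day 6, and Lmx1b from 0.382 to 2.21 FPKM. Lhx5 reached 0.878 FPKM at day 6. Lhx9, a factor of dorsal commissural neurons, ran the other way, from 0.963 FPKM in ES cells to 0.168 FPKM at day 6. Between WT ES cells and WT day 6, which stand in separately normalized tables, 8 of the 10 genes were past 2-fold higher, where 23.2% of all loci above 1 FPKM were, and 0 were past 2-fold lower, where 15.1% were. Lhx5 and Lhx9 did not pass 1 FPKM in either library. In the other table of the same ES cell library Lhx9 was at 1.05 FPKM, and with that table it was past 2-fold lower at day 6.

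**Figure D2:**
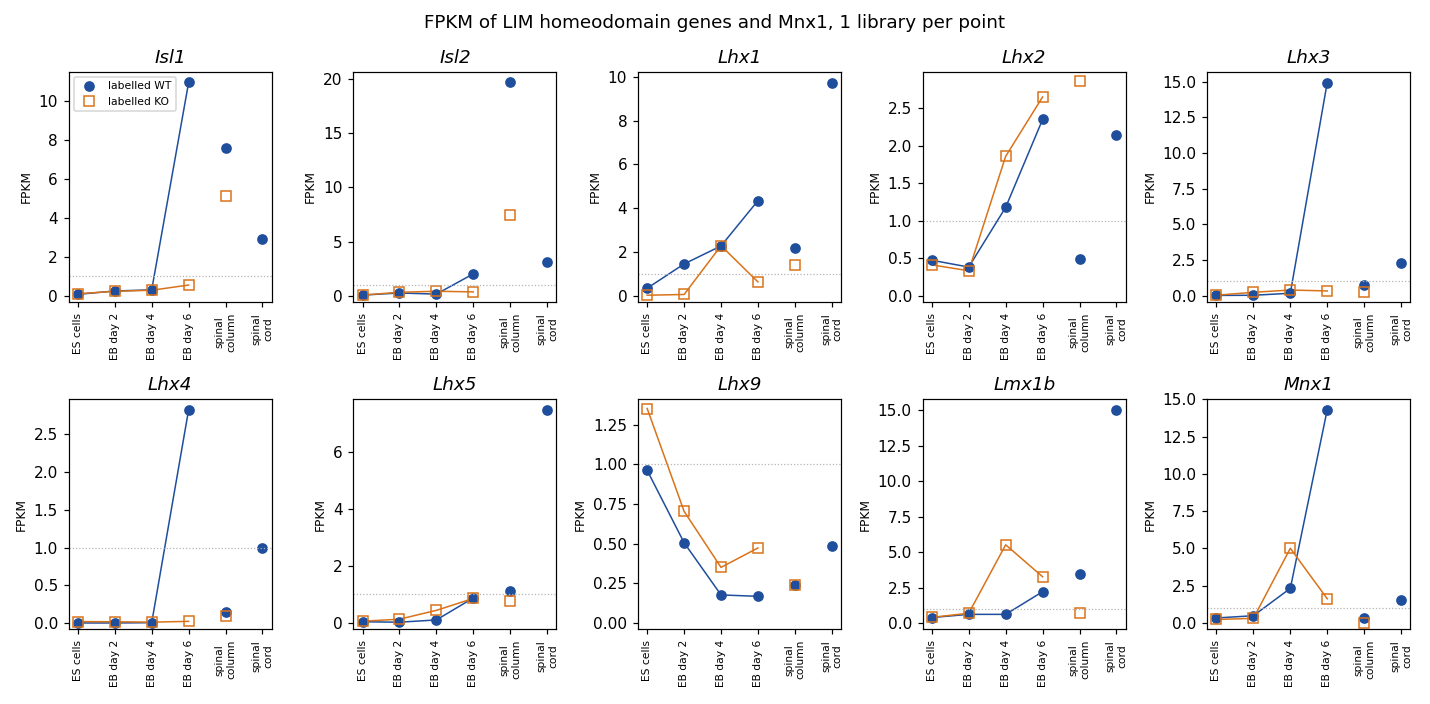
FPKM of each gene (vertical axis, own scale) in ES cells, embryoid bodies at days 2, 4 and 6, newborn spinal column and newborn spinal cord, with filled circles for libraries labelled WT and open squares for those labelled KO. Each point is 1 library, lines join the culture series and the dotted line is 1 FPKM. Isl1, Lhx3, Lhx4 and Mnx1 separate between the labels at day 6, while Lmx1b separates at day 4.

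Before day 4 few of the genes were above 1 FPKM in either library. In ES cells 1 gene, Lhx9, was above 1 FPKM, with 0.963 FPKM in WT and 1.35 FPKM in KO, and 0 of the 10 were past 2-fold, where 0.541% of loci were higher and 0.591% lower. At day 2 Lhx1 was the 1 gene past 2-fold, and it was lower in KO, at 0.0562 FPKM against 1.45 FPKM, a 25.8-fold difference. Of all loci, 1.4% were past 2-fold lower at day 2 and 1.19% higher. Lhx3, at 0.0319 FPKM in WT and 0.239 FPKM in KO, and Lhx5, at 0.0273 and 0.133 FPKM, were under 1 FPKM in both.

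Lhx1, an early marker of mesoderm as well as of interneurons, showed the same direction in ES cells, where it was below 1 FPKM in both libraries, at 0.342 FPKM in WT and 0.0232 FPKM in KO. From the smallest values in each library, these levels correspond to roughly 205 fragments in WT and 6.66 in KO at day 2, and to 68.1 and 3.90 in ES cells. At day 4 the difference was gone, with 2.27 FPKM in WT and 2.28 FPKM in KO.

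At day 4 the differences that passed 2-fold were toward higher values in the library labelled KO. Lmx1b, which is needed for dorsal and serotonergic neurons, was at 0.607 FPKM in WT and 5.52 FPKM in KO, 9.10-fold higher. Mnx1 was at 2.32 FPKM and 5.01 FPKM, 2.16-fold higher. With 1 FPKM added to both values the log2 ratio of Mnx1 was 0.86, within 2-fold. Thus 2 of the 4 genes above 1 FPKM were past 2-fold higher and 0 past 2-fold lower, where 12.1% of loci were higher and 4.43% lower.

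Lhx2, at 1.18 and 1.86 FPKM, and Lhx1 were within 2-fold at day 4. The other 6 genes were under 1 FPKM in both libraries, Isl2 at 0.149 and 0.411 FPKM and Lhx5 at 0.107 and 0.443 FPKM among them. In the same comparison 4 of 4 pluripotency markers were past 2-fold higher in KO, with a summed level of 29.2 FPKM in WT and 177 FPKM in KO, as were 3 of 3 keratins of simple epithelium, with 44.0 and 251 FPKM. The progenitor factor Olig2 was at 59.9 FPKM in WT and 4.67 FPKM in KO. The part of these shifts in the higher Lmx1b and Mnx1 was not tested.

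At day 6, when the motor neuron genes were present in the library labelled WT, they were low in that labelled KO. Lhx3 was at 14.9 FPKM in WT and 0.335 FPKM in KO, 44.6-fold lower. Isl1 was at 10.96 and 0.549 FPKM, 20.0-fold lower. These 2 genes encode the LIM factors whose joint complex specifies motor neurons.

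Mnx1 was at 14.3 and 1.62 FPKM, 8.81-fold lower, so that the gene which was higher in KO at day 4 was lower in KO at day 6. Lhx4 was at 2.83 and 0.0214 FPKM. The lower value corresponds to roughly 1.16 fragments, so the size of the Lhx4 ratio is poorly determined. With 1 FPKM added to both values its log2 ratio was -1.91. Lhx1, at 4.34 and 0.631 FPKM, was 6.88-fold lower, and Isl2, at 2.02 and 0.355 FPKM, 5.68-fold lower.

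The other genes of the group did not follow. Lhx2 was at 2.35 FPKM in WT and 2.65 FPKM in KO, and Lmx1b at 2.21 and 3.26 FPKM, both within 2-fold. Lhx5 was at 0.878 and 0.862 FPKM and Lhx9 at 0.168 and 0.473 FPKM, below 1 FPKM in both. Of the 10 genes, 8 were above 1 FPKM, 6 of these were past 2-fold lower, where 9.93% of loci were, and 0 were past 2-fold higher, where 10.5% were. The median log2 ratio of the 8 was -2.96, and that of all loci above 1 FPKM was 0.00. Within the library labelled KO, Lmx1b and Lhx2 were the highest of the 10, where in WT they were Lhx3 and Mnx1.

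**Figure D3:**
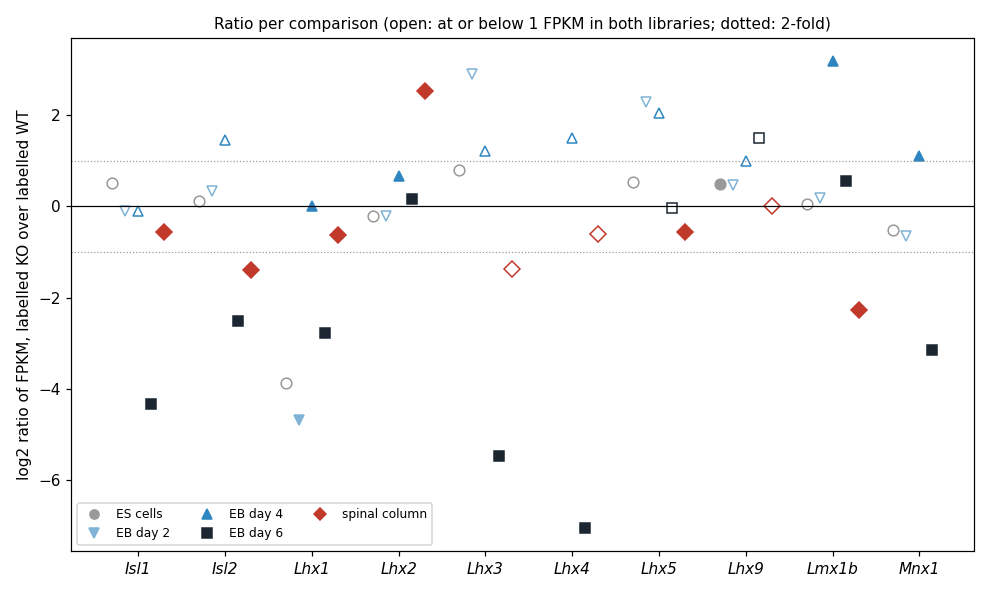
Log2 ratio of FPKM, labelled KO over labelled WT, for each gene in 5 comparisons, with 1 library on each side. Filled markers are above 1 FPKM in at least 1 library, open markers are not, and dotted lines mark 2-fold. A gene listed at 0 in 1 of the libraries has no marker. At day 6 (black squares) Isl1, Isl2, Lhx1, Lhx3, Lhx4 and Mnx1 lie below the lower line, while Lhx2 and Lmx1b lie between the lines.

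Of 10 motor neuron factors and effectors, 8 were above 1 FPKM at day 6 and 7 of them were past 2-fold lower in KO, 0 higher. Neurog2, a proneural bHLH factor that works with the LIM complex, was at 44.3 FPKM in WT and 0.219 FPKM in KO. Slc18a3, the vesicular acetylcholine transporter, was at 32.2 and 0.479 FPKM, and Chat, which makes acetylcholine and whose locus overlaps Slc18a3, was at 1.05 FPKM and listed at 0. Of 10 LIM cofactors and LIM-only genes, 8 were above 1 FPKM and 1 was past 2-fold lower, Lmo1, at 6.12 and 2.50 FPKM. Ldb1, the adaptor that bridges LIM complexes, was at 87.8 and 67.4 FPKM. Of 5 V2 interneuron genes, 2 of the 3 above 1 FPKM were past 2-fold higher in KO, Gata2 at 2.84 and 7.87 FPKM and Gata3 at 1.91 and 4.97 FPKM. The other 3 LIM homeodomain genes looked up, Lhx6, Lhx8 and Lmx1a, had 1 gene above 1 FPKM, Lhx6, at 0.636 and 1.37 FPKM.

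Markers of other cell types differed between the same libraries. General neuronal markers were past 2-fold lower in KO in 6 of 6 cases, with a summed level of 810 FPKM in WT and 108 FPKM in KO, Elavl4 being at 25.6 and 0.552 FPKM. Pluripotency markers were past 2-fold higher in 3 of 4, with 337 and 864 FPKM summed, Esrrb being at 26.9 and 86.9 FPKM, and the 3 keratins were past 2-fold higher, with 124.6 and 1033 FPKM summed, Krt8 being at 47.2 and 441 FPKM. Their part in the low values of Isl1, Lhx3 and the others was not tested, and in these bulk libraries fewer cells of a type and less RNA per cell cannot be told apart. Pou5f1, the pluripotency factor OCT4, was at 198 FPKM in the day 6 library labelled WT and at 19.9 FPKM in that of day 4.

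Between the last 2 time points the labelled cultures diverged. In the library labelled KO, Isl1 was at 0.281 FPKM at day 4 and 0.549 FPKM at day 6, Lhx3 at 0.400 and 0.335 FPKM, and Lhx4 at 0.0110 and 0.0214 FPKM. Mnx1, from 5.01 to 1.62 FPKM, and Lhx1, from 2.28 to 0.631 FPKM, were lower at day 6 than at day 4, where in WT both were higher. Lmx1b went from 5.52 to 3.26 FPKM.

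The tissues showed a different order of the 10 genes. In newborn spinal cord Lmx1b was highest, at 15.1 FPKM, then Lhx1 at 9.74 FPKM and Lhx5 at 7.49 FPKM, all markers of interneurons. The motor neuron genes stood below them, Isl2 at 3.07 FPKM, Isl1 at 2.91 FPKM, Lhx3 at 2.29 FPKM, Mnx1 at 1.54 FPKM and Lhx4 at 0.993 FPKM, with Lhx2 at 2.14 FPKM and Lhx9 at 0.483 FPKM. With single libraries it cannot be said which neighbours in this order differ. Against WT ES cells of the same table, 8 of 10 genes were past 2-fold higher in cord, where 30.5% of loci were, and Lhx9 was lower, from 1.05 to 0.483 FPKM, where 35.7% of loci were. Lhx9 was within 2-fold when the ratios were centred or 0.1 FPKM was added.

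In spinal column labelled WT the order was led by Isl2, at 19.7 FPKM, and Isl1, at 7.57 FPKM. Lmx1b followed at 3.46 FPKM, Lhx1 at 2.19 FPKM and Lhx5 at 1.13 FPKM. The remaining 5 genes were under 1 FPKM, from Lhx3 at 0.727 FPKM to Lhx4 at 0.140 FPKM. The ratio of Isl1 to Isl2 was 0.385 here and 0.949 in cord.

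Compared with cord, in a separately normalized table, Isl2 was 6.41-fold and Isl1 2.60-fold higher in column, so 2 genes were higher, where 17.3% of loci were. Lhx1, Lhx2, Lhx3, Lhx5, Lmx1b and Mnx1 were past 2-fold lower, 6 genes in all, where 16% of loci were. Sensory neuron markers stood apart in the same way as Isl1 and Isl2: 7 of 8 were found, 6 were past 2-fold higher in column, and their summed level was 108 FPKM in column and 18.7 FPKM in cord. Of those found, none was at 0 in either library. General neuronal markers were past 2-fold lower in column in 4 of 6 cases, with 713 and 1577 FPKM summed. Cartilage markers, at 180 and 3.66 FPKM summed, bore out the label of column.

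Between the spinal columns, Isl2 read 19.7 FPKM under the WT label and 7.46 FPKM under the KO label, 2.64-fold lower, and Lmx1b at 3.46 and 0.720 FPKM, 4.81-fold lower. Lhx2 went the other way, at 0.495 FPKM in WT and 2.86 FPKM in KO, 5.77-fold higher. These 3 were the only genes of the group past 2-fold, with 2 lower, where 8.51% of loci were, and 1 higher, where 9.07% were.

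Isl1, at 7.57 and 5.12 FPKM, Lhx1, at 2.19 and 1.42 FPKM, and Lhx5, at 1.13 and 0.768 FPKM, were all lower in KO but within 2-fold. The other 4 genes were below 1 FPKM in both columns. Among them Lhx3 was at 0.727 and 0.280 FPKM and Mnx1 at 0.353 FPKM and listed at 0. Lhx9 read 0.236 and 0.237 FPKM, and Lhx4 0.140 and 0.0921 FPKM.

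The sensory neuron markers differed between the columns as well, 5 of the 7 found being past 2-fold lower in KO and 0 higher, with 108 FPKM summed in WT and 41.7 FPKM in KO. Scn10a, a sodium channel of nociceptors, was at 13.9 and 3.20 FPKM, and Prdm12, a nociceptor transcription factor, at 10.1 and 2.69 FPKM. General neuronal markers were past 2-fold lower in 3 of 6, with 713 and 454 FPKM summed, and cartilage markers were within 2-fold in 4 of 4, with 180 and 103 FPKM summed. The part of these markers in the lower Isl2 and Lmx1b was not tested. Lhx2, the gene that was higher, differed in direction from these lists. Of the keratins of simple epithelium, 2 of 3 were past 2-fold higher in KO, with 5.64 and 14.4 FPKM summed, and their part in the higher Lhx2 was not tested. Of the motor neuron factors and effectors, 2 of 6 above 1 FPKM were past 2-fold lower, among them Slit3, at 6.10 and 2.62 FPKM.

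**Figure D4:**
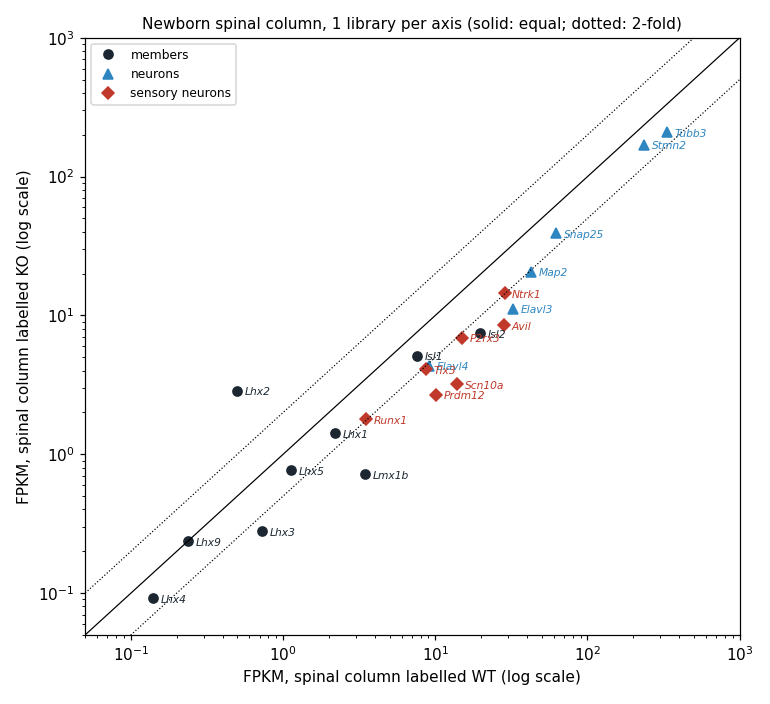
FPKM in spinal column labelled WT (horizontal) against that labelled KO (vertical), both on log scales, for the genes described here (circles), general neuronal markers (triangles) and sensory neuron markers (diamonds). The solid line is equality and the dotted lines are 2-fold. Isl2 and Lmx1b lie below the lower line along with sensory markers such as Scn10a and Prdm12, Lhx2 lies above the upper line, and Mnx1, listed at 0 in KO, is not drawn.

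Across the 11 libraries, as a description, Pearson's r of log2(FPKM + 1) was 0.99 between Lhx3 and Lhx4, 0.87 between Lhx5 and Lmx1b, 0.85 between Isl1 and Isl2, and 0.77 between Lhx3 and Mnx1. Among other pairs of motor neuron genes it ranged from 0.73 between Isl1 and Lhx3, 0.71 between Isl1 and Lhx4 and 0.70 between Lhx4 and Mnx1 down to 0.31 between Isl1 and Mnx1, 0.30 between Isl2 and Lhx3 and -0.12 between Isl2 and Mnx1, and the most negative was -0.64 between Lhx1 and Lhx9. These libraries share cultures and tables. Among 15771 loci outside the group, the 3 most like Lhx3 were Sstr3, Grm2 and Cntn2, with r of 0.98, 0.98 and 0.97, and those most like Lhx4 were Spp2, Chat and Grm2, with 0.99, 0.97 and 0.97. For Isl1 they were Lgals4, Sncg and Insc (0.97, 0.95 and 0.95), and for Isl2 Kcnj11, Fam189b and Megf10 (0.98, 0.98 and 0.97). For Mnx1 they were Whrn, Chrm4 and Midn (0.94, 0.94 and 0.93), for Lhx1 Zfp90, A430033K04Rik and Chrna4 (0.96, 0.95 and 0.94), and for Lhx5 Uncx, Kif17 and Slc26a1 (0.99, 0.98 and 0.98). For Lmx1b they were Sowaha, Scamp1 and Hyal3 (0.98, 0.98 and 0.96), for Lhx2 H2-Ab1, Dcun1d2 and Zfp954 (0.94, 0.92 and 0.91), and for Lhx9 Il11, Gldn and U90926 (0.98, 0.95 and 0.94).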

How the data were processed

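The FPKM values were made by the authors from poly-A RNA-seq with TopHat against RefSeq genes and Cuffdiff, and were used as deposited. Peaks were deposited with a score, which MACS gave on reads aligned to mm9 by Bowtie. Versions, options and the peak caller's control were not given in the sources used here. The tables also hold log2 fold changes and p-values of the authors' own comparisons, which were not used. The tables hold no read totals. The smallest values showed that 1 fragment on 1 kb was worth 0.00852 to 0.0341 FPKM in the culture libraries, least at day 4, and gave no such step in the tissues, so the depth of the tissue libraries is unknown.

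Genes were joined over the 6 tables by position and symbol. Ratios carry no pseudocount. A peak counted for a gene when its midpoint lay in the gene or within 50 kb of its ends. Positions are 1-based in mm9, the build of the genome and GENCODE annotation used, in which 99.3% of 19249 compared loci overlapped the gene of the same symbol. The IgG library was not used here. Groups came from the sample labels. The genes and lists were chosen with earlier results of these data known. The genes named are the 10, Taf9b, up to 4 of each list past 2-fold at day 6 or in spinal column, and the 3 loci most like each gene. Others, such as Ldb1, Olig2, Gata2 and Pou5f1 as context, were named after their values were seen, and the values of 2 list genes are not reported here. The counting was tested on simulated tables for each of the comparisons between KO and WT, and all 200 loci that had been set 4-fold apart were found. The loci set apart were all above 1 FPKM and the added noise was small, so their recovery was fixed by the settings. It says nothing about genes at low values or about differences between replicates. Python 3.11.15, numpy 2.4.6, pandas 2.3.3 and matplotlib 3.10.9 were used. Alternatives were another pseudocount, filter, centring, ES cell table, peak score, distance and overlap.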

Additional observations from a re-analysis of the deposited data

Results flagged for a closer look

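Lmx1b and Mnx1 differed in opposite directions between comparisons of the libraries labelled KO and WT. For Lmx1b the log2 ratio was 3.19 at EB day 4 and -2.27 in spinal column. For Mnx1 it was 1.11 at EB day 4 and -3.14 at EB day 6. With 1 FPKM added to both values the day 4 ratio of Mnx1 was 0.86, within 2-fold. Each ratio comes from 1 library on each side, and the difference between the comparisons was not tested.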

How the results depend on the processing

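The median at day 2 was the only median whose sign turned. With no filter on low values, the genes past 2-fold between KO and WT numbered 1 rather than 0 in ES cells, 3 rather than 1 at day 2 and 6 rather than 2 at day 4, 7 rather than 6 at day 6 and 4 rather than 3 in spinal column, and the median log2 ratio at day 2 turned from -4.69, which is that of Lhx1 alone, to 0.17 over 9 genes. Adding 1 FPKM to both values gave 1 gene at day 4 (Lmx1b, without Mnx1), a median of -1.22 at day 2 and of -1.81 at day 6, where it was -2.96. Adding 0.1 FPKM gave -3.31 at day 2. The genes with a TAF9B peak numbered 6, and 4 with peaks scored above the median, 4 within 5 kb and 5 by nearest start. The genes with a POL2 peak numbered 5, and 2 with peaks scored above the median, 3 within 5 kb and 3 by nearest start. Those with a TAF9B peak that overlaps no POL2 peak numbered 4, and 2 above the median score and 2 within 5 kb. Between day 6 and ES cells of WT the count of 8 became 9 with the other ES cell table, in which Lhx9 was lower. It also became 9 with no filter, where Lhx4, listed at 0 in ES cells, dropped out. There Lhx5 came in as higher and Lhx9 as lower. Between spinal cord and ES cells the count of 9 became 8 with centring, with 0.1 FPKM added or with the other ES cell table, each without Lhx9, and 7 with 1 FPKM added, without Lhx9 and Mnx1. The day 6 count of 6 was the same with 1 or 0.1 FPKM added. Within a stage or tissue no paired analysis was possible, because each genotype has 1 library there and replicate numbers pair nothing. A fit of the average difference over the 4 culture stages, with stage as a block, could have been made and was not run. With 1 library in each group none was left out in turn. Outside the day 6 library labelled WT, the culture values of Lhx4 rest on roughly 0 to 2.01 fragments each.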
